A study of Mus musculus with 4 samples.

Results

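Chemokine receptors steer T cells between the zones of lymphoid tissue, and 9 of their genes were followed in sorted mouse follicular helper T (TFH) cells with and without the ETS transcription factor Etv5. The genes are Cxcr5, Cxcr4, Cxcr3, Cxcr6, Ccr7, Ccr2, Ccr4, Ccr6 and Ccr8. They were chosen by name as receptors that T cells are known to use, and each was found as a row of its own among the 23996 genes of the authors' deposited table. All 9 were among the 11569 genes that Cuffdiff tested. The cells were sorted from spleen as CD4+CD44+CXCR5+PD-1+ cells 7 days after immunization with ovalbumin (OVA) in alum. Etv5 cKO mice carried Etv5f/f with Cd4-Cre (Etv5f/f;Cd4-Cre) and WT mice carried the same floxed allele without Cre (Etv5f/f). Cd4-Cre recombines floxed sequence in cells of the T lineage, including CD8 T cells, because Cd4 is switched on in thymocytes that give rise to both lineages. Neither age, sex nor the number of mice is given in the labels. Each genotype was represented by 2 libraries, but the table holds 1 value per gene and genotype over both, in FPKM (fragments scaled to transcript length and to library size). No spread between libraries can therefore be given, the depth is unknown, and the only measure of error is the authors' Cuffdiff test.

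The receptors are membrane proteins that couple to inhibitory G proteins and turn a gradient of chemokine into directed movement and integrin adhesion. In lymphoid organs CCR7 holds naive T cells in the T cell zone. Activated cells that raise CXCR5 and lower CCR7 move toward CXCL13 in the B cell follicle, which is the path of a TFH cell. CXCR4 responds to CXCL12, which marks the dark zone of the germinal centre. The other receptors are linked with particular helper states and tissues: CXCR3 and CXCR6 with type 1 responses, CCR6 with Th17 cells, CCR4 with Th2, skin-homing and regulatory cells, CCR8 with Th2 and regulatory cells, and CCR2 with inflammatory monocytes and activated T cells.

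As a check of the genotype, Etv5 itself stood at 2.12 FPKM in Etv5 cKO and 5.24 FPKM in WT, 40.4% of the WT level (Cuffdiff adjusted p = 0.0181 in the authors' deposited table). Which exons carry the loxP sites is not stated in the labels. Facts of the libraries that touch the receptors are few. The red cell and platelet markers summed to 571 FPKM in Etv5 cKO and 125 FPKM in WT, and 6 of the 8 tested rows were called higher by Cuffdiff in the authors' deposited table, among them Hbb-b1 with Hbb-bs, Hbb-bt, Alas2, Slc4a1 and Epb42. Hba-a1 with Hba-a2, not called, stood at 162 FPKM in Etv5 cKO and 26.8 FPKM in WT. The myeloid markers summed to 312 and 234 FPKM in Etv5 cKO and WT. Of the 5 tested Y-linked genes, Ddx3y, Eif2s3y, Kdm5d and Uty had 39.2% to 43.0% of their WT level in Etv5 cKO. The other, Erdr1, was higher in Etv5 cKO (log2 fold change 0.29 in the authors' deposited table). In a sorted population, fewer expressing cells and less RNA per cell cannot be told apart, which holds for every value below.

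Of the 9 receptor genes, 0 passed the Cuffdiff test at an adjusted p below 0.05 in the authors' deposited table, where 0.346% of all tested genes passed (40 of 11569; 0.242% lower and 0.104% higher in Etv5 cKO). The smallest adjusted p was 0.231, that of Cxcr3. At an unadjusted p below 0.05 there were 3 of the 9, against 2.4% of all tested genes (278 of 11569): Cxcr3 was lower in Etv5 cKO, and Ccr2 and Ccr4 were higher. The background shares by direction were 1.3% lower and 1.11% higher. The receptor genes were picked with earlier results of these data known, so their share is a description. By value, 4 of the 9 were higher in Etv5 cKO (Ccr2, Ccr6, Ccr4 and Cxcr6) and 5 lower (Cxcr3, Cxcr4, Cxcr5, Ccr8 and Ccr7). Their median log2 fold change was -0.0079, against -0.0033 over all tested genes. The median size of the log2 change, whatever its sign, was 0.35 for the receptors and 0.088 for all tested genes.

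**Figure D1:**
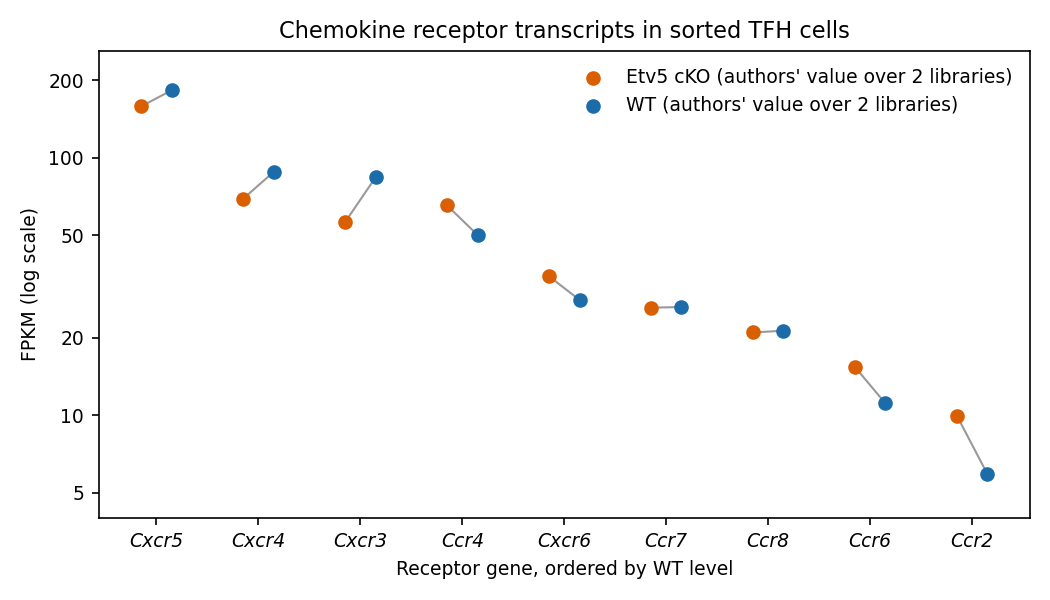
FPKM of the 9 receptor genes on a log axis, with Etv5 cKO on the left and WT on the right of each pair; each point is the authors' value over 2 libraries, so there are no error bars. Cxcr3 (56.1 and 83.8 FPKM in Etv5 cKO and WT) and Ccr2 (9.97 and 5.91 FPKM) show the steepest lines, while those of Ccr7 and Ccr8 are nearly flat.

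The level of the 9 transcripts spanned 15.9-fold in Etv5 cKO and 30.9-fold in WT. Cxcr5 was the most abundant in both, and Ccr2 the least. In Etv5 cKO the order was Cxcr5, Cxcr4, Ccr4, Cxcr3, Cxcr6, Ccr7, Ccr8, Ccr6 and Ccr2. In WT it was the same except that Cxcr3 came before Ccr4. The ratio of Cxcr3 to Ccr4 was 0.859 in Etv5 cKO and 1.67 in WT. Cxcr4 and Cxcr3 were close neighbours in WT (88.0 and 83.8 FPKM), as were Cxcr4 and Ccr4 in Etv5 cKO (69.2 and 65.3 FPKM), and without values per library no step in the order could be tested. Together the 9 transcripts summed to 456 FPKM in Etv5 cKO and 497 FPKM in WT, 91.7% of the WT sum. Cxcr5 made up 34.7% of the sum in Etv5 cKO and 36.7% in WT, Cxcr3 12.3% and 16.9%, and Ccr4 14.3% and 10.1%.

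The receptors of follicle and germinal centre had somewhat lower values without Etv5, none past the test. Cxcr5, the receptor for CXCL13 and part of the sort gate, stood at 158 FPKM in Etv5 cKO and 183 FPKM in WT, above 96% of tested genes in both (percentiles 96.1 and 96.8). Its log2 fold change in the authors' deposited table was -0.21 (Cuffdiff p = 0.267, adjusted p = 0.999). Because the cells were chosen for CXCR5 protein on the surface, its transcript is not a free measure of how many cells express it. The gene lies on chromosome 9 from 44511787 to 44526421 on the minus strand (mm10, protein coding). In GENCODE M21, which uses the same assembly, it overlaps Bcl9l on the opposite strand, and the strand setting of the counting is not given in the sources used here. Cxcr4, the CXCL12 receptor (chromosome 1, 128588199 to 128592299, minus strand), stood at 69.2 FPKM in Etv5 cKO and 88.0 FPKM in WT. Its deposited log2 fold change was -0.35 (Cuffdiff p = 0.0552, adjusted p = 0.999 in the authors' deposited table), a larger difference than that of Cxcr5 by value.

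Ccr7, the T zone receptor for CCL19 and CCL21, was nearly level between the genotypes. It stood at 26.2 FPKM in Etv5 cKO and 26.3 FPKM in WT, with a log2 fold change of -0.0079 in the authors' deposited table (Cuffdiff p = 0.967). Its gene spans 99144199 to 99155077 on the minus strand of chromosome 11 and overlaps no other gene in GENCODE M21. The Ccr7 level was 6.04-fold below that of Cxcr5 in Etv5 cKO and 6.94-fold below it in WT, on a scale that corrects for transcript length.

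Cxcr3 had the lowest p of the receptor genes and the largest drop in FPKM. It encodes the receptor for CXCL9 and CXCL10 and is a target of the Th1 factor T-bet. Its transcript stood at 56.1 FPKM in Etv5 cKO, against 83.8 FPKM in WT, which is 67.0% of the WT level. The log2 fold change in the authors' deposited table was -0.58 (Cuffdiff p = 0.0011, adjusted p = 0.231), so Cxcr3 did not pass. Of the tested genes, 53 had a lower p and 4.15% had a larger log2 change in either direction. Cxcl10, 1 of its ligands, was also lower at 10.2 FPKM in Etv5 cKO and 16.2 FPKM in WT (log2 fold change -0.67, Cuffdiff p = 0.0201, adjusted p = 0.999 in the authors' deposited table). The deposited rows of Cxcl10 and Cxcl11 give the same span on chromosome 5, 92331841 to 92414627. How reads were divided within that span is not given in the sources used here, so the Cxcl10 level is uncertain. Among tested genes averaging 20 FPKM or more, the 5 whose log2 fold change was nearest to that of Cxcr3 were Fos (-0.58), Fam43a (-0.58), Prrt2 (-0.61), Malt1 (-0.54) and Sccpdh (-0.53). That likeness rests on 1 ratio per gene.

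The gene for CXCR3 lies on the X chromosome (101731536 to 101734147, minus strand, protein coding), and sex-linked transcripts differed between the same 2 conditions. Xist, the RNA that coats the inactive X in female cells, stood at 172 FPKM in Etv5 cKO and 110 FPKM in WT (log2 fold change 0.64, Cuffdiff p = 0.0437, adjusted p = 0.999 in the authors' deposited table). Uty, for example, stood at 2.23 FPKM in Etv5 cKO and 5.41 FPKM in WT, and it was called lower together with Ddx3y, Eif2s3y and Kdm5d (Cuffdiff adjusted p = 0.0181 for each in the authors' deposited table). Transcripts of both kinds were present in both genotypes. Over the 376 tested X-linked genes the median log2 fold change in the authors' deposited table was -0.013, and values ranged from -1.50 to 2.06 apart from 1 gene at 0 FPKM in 1 genotype. Of these 3 were called, with log2 fold changes of 2.06 for Alas2, -0.76 for Gpm6b and -1.01 for Mid1. What part the sex of the mice has in the Cxcr3 value was not tested.

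**Figure D2:**
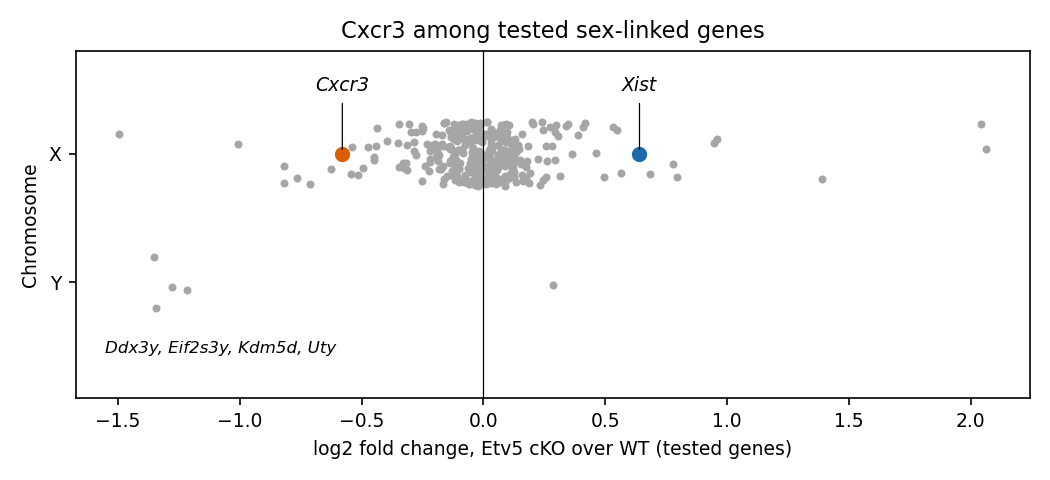
Log2 fold change, Etv5 cKO over WT, of the tested genes on the X chromosome (upper row) and the Y chromosome (lower row), with points spread vertically for visibility and 1 X-linked gene with a value of 0 in 1 genotype left out. Cxcr3 (-0.58) lies left of most X-linked genes, Xist (0.64) right of them, and 4 Y-linked genes lie together near or below -1.22. The other Y-linked gene, Erdr1, lies at 0.29.

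Cxcr6, the receptor for the membrane-bound chemokine CXCL16, stood at 34.7 FPKM in Etv5 cKO and 28.1 FPKM in WT. The log2 fold change of 0.31 in the authors' deposited table had a Cuffdiff p of 0.425 (adjusted p = 0.999), a weaker test result than that of Cxcr4, whose change was of similar size. Its gene lies within Fyco1 on the opposite strand (Cxcr6 at 123806475 to 123811760, plus strand, chromosome 9, in GENCODE M21). The deposited rows of both genes give the span 123789500 to 123851899. Fyco1 itself stood at 9.79 FPKM in Etv5 cKO and 10.5 FPKM in WT. How reads were divided between the pair is not given in the sources used here, so the Cxcr6 level is uncertain.

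Markers of cytotoxic cells, which also use CXCR3 and CXCR6, summed to 86.9 FPKM in Etv5 cKO and 89.9 FPKM in WT over the 11 genes of the list. Of its 10 tested genes 9 were higher in Etv5 cKO, at a median log2 fold change of 0.30, with 0 called by Cuffdiff in the authors' deposited table (1 at an unadjusted p below 0.05). The most abundant, Nkg7, a granule membrane protein, stood at 45.0 FPKM in Etv5 cKO and 55.6 FPKM in WT. Klrb1c (10.4 and 10.2 FPKM in Etv5 cKO and WT) and Eomes (8.30 and 7.05 FPKM) followed. Of the genes for the CD8 chains, Cd8b1 was at 5.77 FPKM in Etv5 cKO and 4.32 FPKM in WT, and Cd8a at 0.0800 and 0.0519 FPKM. The part of such cells in the receptor values was not tested beyond these levels.

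Ccr2 had the largest log2 fold change of the 9 genes, at the lowest level. Its product binds CCL2 and related monocyte chemoattractants. The transcript stood at 9.97 FPKM in Etv5 cKO and 5.91 FPKM in WT, 1.69-fold higher in Etv5 cKO. The log2 fold change in the authors' deposited table was 0.75 (Cuffdiff p = 0.00135, adjusted p = 0.252), and with a pseudocount of 5 FPKM it was 0.46. The gene lies on chromosome 9 from 124102183 to 124109140, on the plus strand, and reads can be shared with related receptor genes.

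Myeloid markers, like Ccr2, mostly had higher values in Etv5 cKO without passing the test. All 18 tested genes of the 20 in that list had higher values in Etv5 cKO, at a median log2 fold change of 0.57 in the authors' deposited table, and none of the 20 was at 0 in either genotype. Cuffdiff called 1 of them in the authors' deposited table, Lyz2, at 16.4 FPKM in Etv5 cKO and 8.12 FPKM in WT (adjusted p = 0.0434; with untested genes included in the adjustment it was 0.0900 and Lyz2 did not pass). Cst3 (76.1 and 71.5 FPKM in Etv5 cKO and WT), C1qb (33.0 and 22.0 FPKM) and C1qa (30.8 and 21.9 FPKM) were the most abundant. Ly6c2, a surface protein of inflammatory monocytes, stood at 14.2 FPKM in Etv5 cKO and 8.11 FPKM in WT. The part of myeloid cells in the Ccr2 value was not tested.

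Ccr6, the receptor for CCL20 that marks Th17 cells and is also found on B cells, stood at 15.4 FPKM in Etv5 cKO and 11.1 FPKM in WT. The log2 fold change in the authors' deposited table was 0.47 (Cuffdiff p = 0.0521, adjusted p = 0.999). The gene spans 8236043 to 8257129 on the plus strand of chromosome 17. Of 12 B cell markers 10 were found, and they summed to 18.8 FPKM in Etv5 cKO and 19.3 FPKM in WT. Of these 10, 7 were not tested and 0 of the 3 tested were called by Cuffdiff (0 at an unadjusted p below 0.05). Most of that sum was Cd22, at 10.7 FPKM in Etv5 cKO and 12.98 FPKM in WT, followed by Cd79b (4.80 and 4.13 FPKM) and Cd79a (1.43 and 1.001 FPKM).

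Ccr4 and Ccr8, both linked with Th2 and regulatory T cells, did not go together. Ccr4, the receptor for CCL17 and CCL22, stood at 65.3 FPKM in Etv5 cKO and 50.1 FPKM in WT. Its log2 fold change in the authors' deposited table was 0.38 (Cuffdiff p = 0.031, adjusted p = 0.999). Ccr8, the receptor for CCL1 and CCL8, stood at 21.0 FPKM in Etv5 cKO and 21.3 FPKM in WT (log2 fold change -0.023, Cuffdiff p = 0.918 in the authors' deposited table). The difference between the 2 responses was not tested, since the table has no values per library. Both lie on chromosome 9, Ccr4 from 114490316 to 114496544 on the minus strand and Ccr8 from 120092133 to 120094906 on the plus strand.

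Regulatory T markers were present in both genotypes; follicular regulatory T cells are known to carry the surface proteins used for the sort. The 7 genes summed to 565 FPKM in Etv5 cKO and 598 FPKM in WT, with 4 higher and 3 lower in Etv5 cKO. Their median log2 fold change was 0.022, and 0 were called by Cuffdiff in the authors' deposited table (1, Nrp1, at an unadjusted p below 0.05). Ctla4 (216 and 208 FPKM in Etv5 cKO and WT), Tnfrsf18 (133 and 144 FPKM) and Ikzf2 (79.9 and 102 FPKM) had the highest levels. Foxp3 stood at 66.3 FPKM in Etv5 cKO and 65.3 FPKM in WT (log2 fold change 0.022 in the authors' deposited table). The identity of the sort was checked on 10 TFH and T cell markers, all of them tested and none at 0, although Cxcr5, Cd4, Cd44 and Pdcd1 among them encode the proteins of the sort gate. They summed to 2282 FPKM in Etv5 cKO and 2423 FPKM in WT. By value 8 were lower and 2 higher in Etv5 cKO (9 and 1 after quantile normalization), and their median log2 fold change in the authors' deposited table was -0.11. Cuffdiff called 0 of them. At an unadjusted p below 0.05 there was 1, the cytokine gene Il21, at 49.7 FPKM in Etv5 cKO and 66.1 FPKM in WT. Cd3e (522 and 578 FPKM in Etv5 cKO and WT), Cd4 (470 and 460 FPKM) and Cd3d (361 and 381 FPKM) were the most abundant.

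**Figure D3:**
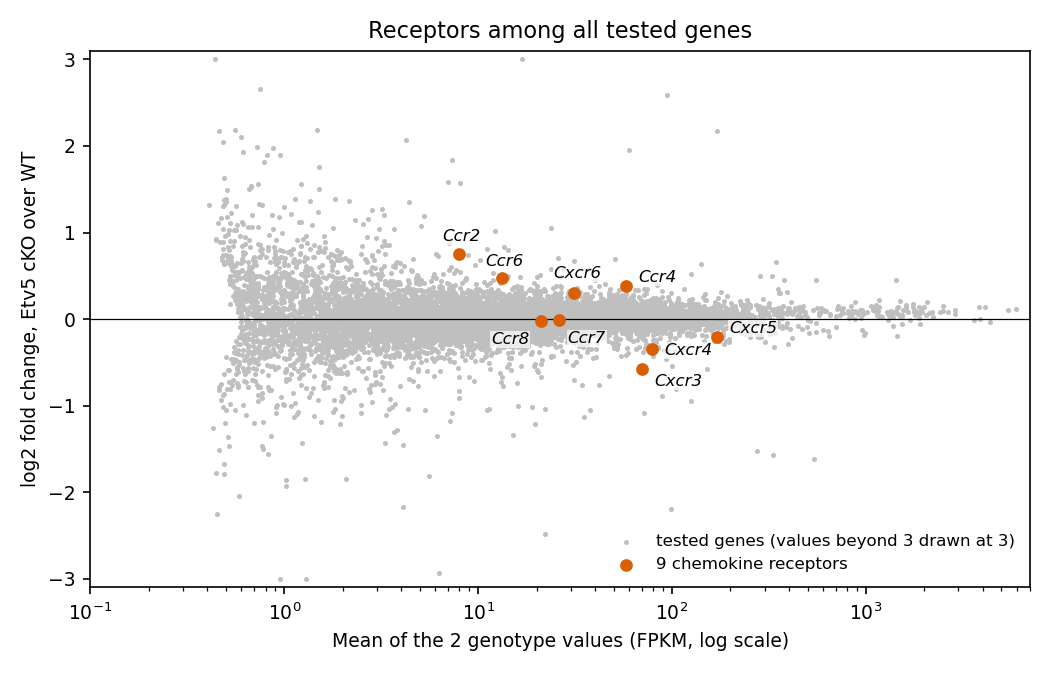
Log2 fold change, Etv5 cKO over WT, against the mean of both genotype values in FPKM (log axis) for the tested genes (grey) and the 9 receptor genes (orange); values beyond 3 are drawn at 3, and 5 genes with a value of 0 in 1 genotype are left out. Cxcr3 (-0.58) and Ccr2 (0.75) lie at the rim of the grey cloud at their levels, and Ccr7 and Ccr8 lie on the zero line.

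Promoter sequence was examined because Etv5 is an ETS factor, a family that binds DNA around a GGAA core. RefSeq promoters (GRCm38.p6, from 250 bases before to 50 bases after the start) matched 7 of the 9 genes, with 8 windows because Ccr6 has a pair of starts. Cxcr5 and Ccr7 had no window and were not searched. The letters CCGGAAGT, on both strands, were found in 0 of the 7 genes, against 4.31% of all 27025 genes with a window, and the shorter CCGGAA, which lies inside it, in 0 of 7 against 16.7%. CAGGAAGT was found in 2 of the 7, against 3.86% of all genes, at 230 bases before the start of Cxcr3 and 48 bases before that of Ccr4. Those genes had opposite signs of log2 fold change (-0.58 and 0.38). The 250 bases before the start of both are shown for that reason, 5′ to 3′ on the gene's own strand, with the matched letters in capitals (in Cxcr3 the match is on the other strand and reads ACTTCCTG). Cxcr3 is at chrX:101734148-101734397 and Ccr4 at chr9:114496545-114496794, both on the minus strand. A match of letters is a description and not a binding site.
Cxcr3: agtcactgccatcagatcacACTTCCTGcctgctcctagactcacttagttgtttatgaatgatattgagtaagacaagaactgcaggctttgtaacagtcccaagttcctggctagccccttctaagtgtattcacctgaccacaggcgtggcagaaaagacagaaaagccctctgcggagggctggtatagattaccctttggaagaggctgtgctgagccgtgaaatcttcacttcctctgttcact
Ccr4: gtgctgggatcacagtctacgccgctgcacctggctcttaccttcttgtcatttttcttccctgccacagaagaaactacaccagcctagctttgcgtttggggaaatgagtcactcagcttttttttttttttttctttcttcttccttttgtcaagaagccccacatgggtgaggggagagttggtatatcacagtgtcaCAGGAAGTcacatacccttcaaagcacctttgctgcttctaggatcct

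Of the other 15 chemokine receptors, all found in the table, 6 were tested and 0 were called by Cuffdiff (1 at an unadjusted p below 0.05), and 10 were under 1 FPKM in both genotypes. The 1 gene was Ccr3, the eotaxin receptor of eosinophils, at 4.98 FPKM in Etv5 cKO and 3.26 FPKM in WT (log2 fold change 0.61, Cuffdiff p = 0.0293, adjusted p = 0.999 in the authors' deposited table). Ccrl2 (3.67 and 4.44 FPKM in Etv5 cKO and WT), Ccr9, the gut-homing receptor (1.63 and 1.46 FPKM), and Ccr10, a skin-homing receptor (1.09 and 1.16 FPKM), were tested as well. Ackr1, the atypical receptor of red cells and venules, stood at 0.791 FPKM in Etv5 cKO and 0.0898 FPKM in WT (log2 fold change 3.14, Cuffdiff p = 0.148 in the authors' deposited table), beside red cell markers that summed to 571 and 125 FPKM. Ccr1, Cxcr1, Cxcr2, Xcr1, Cx3cr1, Ccr1l1, Ackr2, Ackr3 and Ackr4 were not tested, and their levels lay between 0 and 0.534 FPKM.

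Several receptor genes sit side by side on chromosome 9, where 5 of the 9 lie. From Ccr9 (start 123767211) to Ccr2 (end 124109140) the genes run Ccr9, Cxcr6 within Fyco1, Xcr1, Ccr1, Ccr1l1, Ccr3 and Ccr2. The log2 fold changes in the authors' deposited table were 0.17 for Ccr9, 0.31 for Cxcr6, 0.61 for Ccr3 and 0.75 for Ccr2. None of these genes passed the Cuffdiff test.

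Transcripts for the ligands of the 9 receptors were mostly at very low levels in the sorted cells. Of 18 ligand genes 2 were tested, 0 were called by Cuffdiff and 16 were under 1 FPKM in both genotypes. Beside Cxcl10, the tested ligand was Ccl1, which binds CCR8, at 3.96 FPKM in Etv5 cKO and 4.51 FPKM in WT (Cuffdiff p = 0.72 in the authors' deposited table). Cxcl13, the ligand of CXCR5, stood at 0.0325 FPKM in Etv5 cKO and 0.263 FPKM in WT and was not tested.

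Among genes of the machinery that carries the receptors' signal, most differed little between the genotypes, and levels ranged widely, with Rac2 at 584 FPKM in Etv5 cKO and 556 FPKM in WT and Pik3r6 at 0.0690 and 0.0364 FPKM. Of 33 G protein, kinase, arrestin, PI3K-gamma, Rac and integrin genes 32 were found and 31 tested. By value, 19 were higher in Etv5 cKO (20 after quantile normalization) and 12 lower. Their median log2 fold change in the authors' deposited table was 0.047, with 0 called by Cuffdiff and 0 at an unadjusted p below 0.05. For 28 of the 31 the log2 fold change was smaller than 0.2 in size, as it was for 9124 of all 11569 tested genes. The gene of lowest p was Gnaq, an alpha subunit outside the inhibitory class, at 7.57 FPKM in Etv5 cKO and 9.98 FPKM in WT (log2 fold change -0.40, Cuffdiff p = 0.0522 in the authors' deposited table). Next came Rasgrp2, an activator of Rap1 (51.6 and 42.9 FPKM in Etv5 cKO and WT), the receptor kinase Grk5 (1.90 and 2.32 FPKM) and Pik3r5, a regulatory subunit of PI3K-gamma (13.5 and 11.9 FPKM). Gnai2, the main inhibitory alpha subunit of lymphocytes, stood at 357 FPKM in Etv5 cKO and 346 FPKM in WT.

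**Figure D4:**
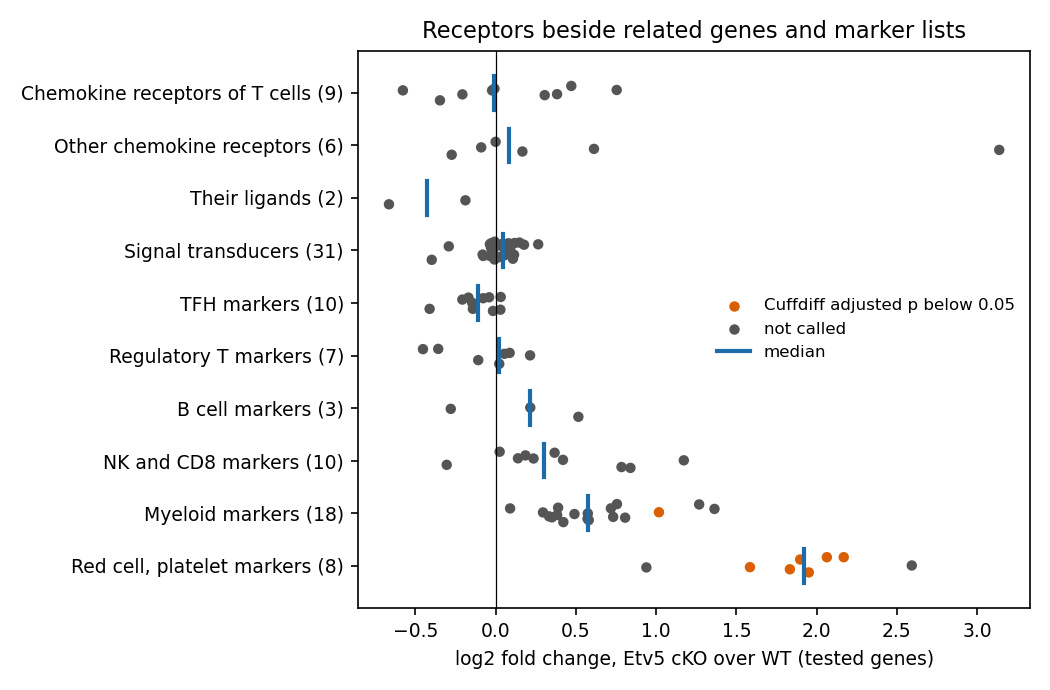
Log2 fold change, Etv5 cKO over WT, of each tested gene (points) by list, with the number of tested rows in brackets and the median as a blue bar; orange points passed the Cuffdiff test at an adjusted p below 0.05. The 31 signal transducers lie close to 0, the 9 receptor genes spread from -0.58 to 0.75 with none called, and the myeloid (median 0.57) and red cell and platelet markers (median 1.92) lie to the right.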

How the data were processed

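Messenger RNA of 4 libraries of sorted splenic TFH cells was sequenced after a stranded poly(A) preparation, per the labels' protocols. TopHat2 2.0.13, Cuffdiff 2.2.0 and mm10 are named, per the submitters' processing notes. How these steps were ordered, how libraries were scaled, and which annotation and strand setting served is not given in the sources used here. Per the file headers, the authors' table holds 1 FPKM value per gene and genotype, the log2 fold change (Etv5 cKO over WT, no pseudocount), the fold ratio, the test score, the p-value and the adjusted p-value. FPKM carries no counts, so the depth is unknown, and nothing in the labels says that libraries came from separate mice, so the p-values may measure technical spread. The 1 empty line was not analysed here.

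The call was the deposited adjusted p below 0.05 over 11569 tested genes; 12427 were not tested. Members and lists were chosen with earlier results of these data known, and 146 of 149 list symbols were found. Named were the 9 receptors, the other chemokine receptors, up to 4 ligands and 4 transducers of lowest p, the 3 most abundant markers per list and called markers, and the 5 genes nearest to Cxcr3. Other genes (Etv5, Xist, the Y-linked genes, Fyco1, Ly6c2, Cd8a, Cd8b1, Cxcl13, Gnai2, Rac2, Pik3r6, Gpm6b, Mid1, Il21, Nrp1, Foxp3) were chosen after their values were seen. Some genes named by the rule are not reported here. Starts are 1-based, by adding 1 to the deposited start. Promoters came from RefSeq, GRCm38.p6. The adjustment and the quantile step were tested on simulated data. Python 3.11.15, pandas 2.3.3, numpy 2.4.6, scipy 1.17.1 and matplotlib 3.10.9 were used. Alternatives were pseudocounts of 1 and 5 FPKM, median centring, quantile normalization, a filter of 1 FPKM, adjustment over every listed gene and a threshold of 0.1.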

Additional observations from a re-analysis of the deposited data

How the results depend on the processing

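No receptor gene changed direction under any alternative run. Pseudocounts, centring and quantile normalization changed the log2 fold change only and gave no new p, so they say nothing on passing the test. A pseudocount also cannot turn the sign of a change. The log2 fold change of Cxcr3 lay between -0.59 (quantile normalization) and -0.54 (pseudocount of 5 FPKM), and that of Ccr2 between 0.46 (pseudocount of 5 FPKM) and 0.77 (quantile normalization). Adjusted over every listed gene, the Cuffdiff p of the authors' deposited table came to 0.480 for Cxcr3 and 0.522 for Ccr2. The count of called receptors stayed at 0 over every listed gene, with the filter of 1 FPKM and at a threshold of 0.1. The smallest deposited adjusted p of a receptor was 0.231, and including untested genes can only raise it. Neither that adjustment nor the threshold of 0.1 could therefore add a call. Under centring, quantile normalization and the filter, 4 receptors stayed higher in Etv5 cKO. The filter removed none of the 9, so it could not alter that number. Of the other receptors 3 were higher as deposited, 4 after centring or quantile normalization and 2 with the filter. No paired analysis was possible because the deposited table gives 1 value per genotype, and for the same reason leaving out a library was not run. The missing spread and the unknown depth limit what can be said of small differences: that Ccr7 and Ccr8 did not pass does not show that they were equal.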
